A study of Arabidopsis thaliana with 2 samples.

Results

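The DNA damage checkpoint stops the plant cell cycle when DNA is broken or replication stalls. The kinase ATM responds mainly to double-strand breaks. The kinase ATR works with its partner ATRIP at single-stranded DNA, where RAD17 loads the ring-shaped RAD9-RAD1-HUS1 clamp. Proteins of the TOPBP1 type activate ATR in animals. Downstream in plants, the NAC transcription factor SOG1 turns on the transcriptional response, and the kinase WEE1 slows cyclin-dependent kinases when replication is disturbed. MYB3R3 is a MYB protein with 3 MYB repeats, from a family known for the control of mitotic genes. In Arabidopsis it acts as a repressor, and repressor MYB3R proteins are known to hold back mitotic genes after DNA damage.

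The genes described here are 10 checkpoint genes out of 27444 protein-coding genes on the 5 nuclear chromosomes. They were chosen for their function by locus code: ATM (AT3G48190), ATR (AT5G40820), ATRIP (AT5G45610, SUV2 in the gene table), RAD9 (AT3G05480), RAD1 (AT4G17760), HUS1 (AT1G52530), RAD17 (AT5G66130), the TOPBP1-like gene MEI1 (AT1G77320), SOG1 (AT1G25580) and WEE1 (AT1G02970). The gene table gives RAD1 and HUS1 by locus code alone. A gene was said to have a peak when a peak overlapped the gene or the 1000 bp to either side by at least 1 bp.

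The series asked where MYB3R3 sits on the genome. Chromatin came from Col-0 Arabidopsis carrying MYB3R3 fused to the green fluorescent protein (GFP), taken as whole seedlings 9 days after germination. They grew in liquid MS medium with 2% sucrose under continuous light at 22 °C, and no treatment was applied, so the plants had received no DNA-damaging agent. The promoter of the fusion gene, the number of transgenic lines and the state of the endogenous MYB3R3 gene could not be read from the labels. There was 1 library precipitated with an antibody against GFP, used through its deposited list of 2931 peaks, and 1 library of input DNA from the same line, which was not analysed here. The read depth behind the peaks is unknown. With 1 list there is no replicate error, so no difference below was tested, and every value describes this list of peaks.

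A peak was present at 5 of the 10 checkpoint genes: ATM, RAD9, RAD1, MEI1 and WEE1. ATR, ATRIP, HUS1, RAD17 and SOG1 had none. Of all protein-coding genes, 3828 (13.9%) had a peak by the same rule. The 5 genes held 8 peaks between them, 3 at RAD9, 2 at RAD1 and 1 at each of the others. WEE1 alone had a strong peak, with a score of 141.4, while the other 7 peaks scored between 10.2 and 16.8 and lay below the median of the whole list, 17.4. The score is the authors' own number per peak, where a higher value means a higher place in the list, and its formula was not known here.

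**Figure D1:**
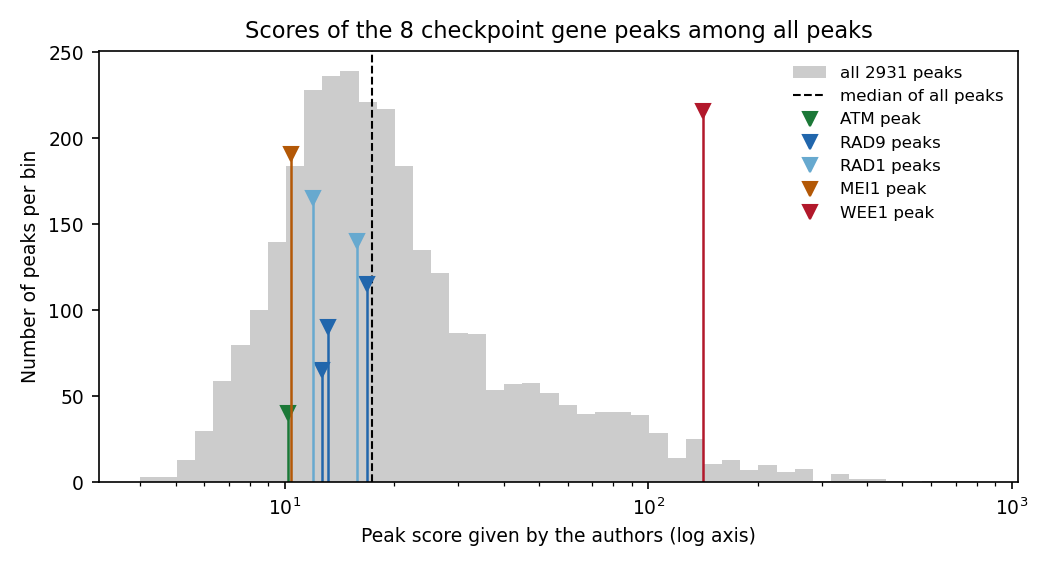
Scores of the 8 peaks at checkpoint genes (coloured lines and triangles, whose height only separates them) on the histogram of all 2931 peak scores (grey), with a log axis for the score and the number of peaks per bin on the y axis. The WEE1 peak stands at 141.4, right of the dashed median of 17.4, and the other 7 peaks lie to its left.

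Longer genes had a peak more often, and most checkpoint genes were longer than the median gene. Gene lengths in the gene table were 27265 bp for ATM, 6552 bp for MEI1, 4021 bp for RAD9, 3114 bp for WEE1 and 1638 bp for RAD1. The 5 genes without a peak measured 11171 bp (ATR), 3661 bp (ATRIP), 3259 bp (RAD17), 3204 bp (SOG1) and 1471 bp (HUS1). The median over all protein-coding genes was 2078 bp. A peak was present at 23.7% of genes of 5000 bp or more, at 17.6% of genes from 3000 to under 5000 bp, at 14.6% of genes from 1500 to under 3000 bp and at 8.70% of shorter genes. The longest class held ATM and MEI1 with a peak and ATR without one. The part of gene length in the count of 5 was not tested.

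Of the 2 apical kinases, ATM had a weak peak and ATR none. The ATM peak (chromosome 3, 17801215 to 17801413 in TAIR10) scored 10.2 and ranked 2480 of 2931, above 15.3% of the list. It was 199 bp wide, close to the narrowest peak of the list (196 bp). Its midpoint lay 25 bp inside the end of ATM with the lower coordinate, at one edge of a gene of 27265 bp, and the rest of the gene and its other flank held no peak. No other protein-coding gene was touched by it.

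ATR and its partner ATRIP had no peak, like most protein-coding genes (13.9% had one). The nearest peak to ATR was 53.8 kb away, farther than for 87.6% of all genes without a peak. For ATRIP the distance was 28.7 kb, farther than for 70.8% of them. The median distance of the 23616 genes without a peak was 15.6 kb, with quartiles of 6.83 and 32.8 kb. The 2 genes whose products form the ATR kinase complex were both beyond that median, ATRIP within the quartiles and ATR above the upper one.

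The clamp genes differed among themselves: RAD9 had 3 peaks, RAD1 had 2 and HUS1 none. Only 59 of all protein-coding genes (0.215%) had 3 or more peaks, and 432 (1.57%) had 2 or more. The 3 RAD9 peaks on chromosome 3 had scores of 12.65 (1585124 to 1585373), 13.1 (1585470 to 1585697) and 16.8 (1589846 to 1590094). They ranked 2092, 2024 and 1514. The first spanned the lower-coordinate end of RAD9, with its midpoint 23.5 bp outside the gene. The second lay wholly inside the gene, with its midpoint 311.5 bp from the same end. These 2 peaks lay closer together than the width of either (250 and 228 bp). Whether they are parts of 1 bound stretch was not tested. The remaining one lay outside the opposite end, with its midpoint at 678 bp. All 3 touched no other protein-coding gene by the rule.

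One more peak stood 1209 bp beyond the higher-coordinate end of RAD9, just outside the window. It scored 38.7 (chromosome 3, 1590501 to 1590824) and touched RALFL22 (AT3G05490), which encodes a small secreted peptide of the RALF type. It was higher than any of the 3 peaks counted for RAD9.

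RAD1 had a peak at each end. The peak at the lower-coordinate end (chromosome 4, 9871652 to 9871997) scored 15.8, ranked 1633 and was 346 bp wide, with its midpoint 63.5 bp inside RAD1. It also fell within the flank of HSF1 (AT4G17750, also HSFA1A), a heat shock transcription factor gene that lies 115 bp from RAD1, and its midpoint was 178.5 bp outside HSF1. The peak at the other end (9873471 to 9873674) scored 11.9 and ranked 2207. It lay wholly outside RAD1, with its nearest edge 73 bp from the gene, and covered all 72 bp of the tRNA gene AT4G17765. No other member's peak overlapped a gene that does not code for protein. Peaks overlapped 101 of 625 nuclear tRNA genes (16.2%), and 8.39% of protein-coding genes had a peak when no flank was added. These shares are not matched for size: this tRNA gene is 72 bp long, and the median protein-coding gene 2078 bp. Whether this peak belongs to RAD1 or to the tRNA gene cannot be told apart from its position.

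HUS1 and the clamp loader RAD17 had their nearest peaks outside the window but within a few kb. The nearest peak to HUS1 was 2.71 kb away, scored 9.26 (chromosome 1, 19565602 to 19565883) and touched AT1G52510 and FRS6. The nearest peak to RAD17 was 1.54 kb away, scored 80.05 (chromosome 5, 26438763 to 26439189) and ranked 215. It touched PAD2 (AT5G66140), a proteasome subunit gene, and AT5G66150. Among genes without a peak, 7.74% had a nearer peak than HUS1 and 2.20% a nearer one than RAD17.

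**Figure D2:**
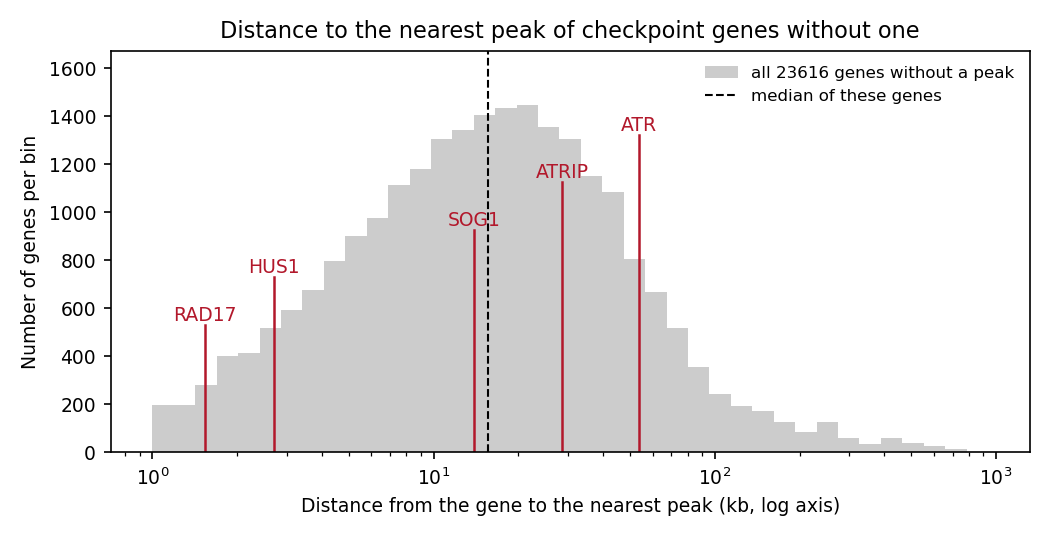
Distance in kb (log axis) to the nearest peak for the 5 checkpoint genes without one (red lines, whose height only separates the labels), on the histogram of all 23616 protein-coding genes without a peak. RAD17 (1.54 kb) and HUS1 (2.71 kb) lie at the near side, SOG1 (13.9 kb) near the dashed median of 15.6 kb, and ATRIP (28.7 kb) and ATR (53.8 kb) beyond it.

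MEI1, which encodes a protein with BRCT domains known for its part in male meiosis, had a weak peak next to a neighbouring gene. It scored 10.4 (chromosome 1, 29056436 to 29056687), ranked 2440 and lay wholly inside MEI1, with its midpoint 134.5 bp from the lower-coordinate end. The neighbour AT1G77310 (listed as UBN2, ubinuclein 2) overlaps MEI1 by 5 bp, and its end was 130.5 bp from the same midpoint. A peak 252 bp wide does not separate the 2 genes, and by the nearest end alone it went to AT1G77310.

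The effectors split: WEE1 had a peak near the top of the list and SOG1 none. The WEE1 peak (chromosome 1, 673107 to 673658) scored 141.4 and ranked 70 of 2931, above 97.6% of the list. WEE1 was 107th by highest score among the 3828 genes with a peak. At 552 bp the peak was wider than the upper quartile of all peaks, 362 bp. Its midpoint lay 76.5 bp inside the lower-coordinate end of WEE1, and 63.9% of its width was inside the gene. It also touched the flank of AT1G02965, 568.5 bp from its midpoint and 492 bp from WEE1. It was 1 of 265 peaks (9.04%) with a score of 70 or more, and the only one of the 8 checkpoint peaks above that value.

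Another peak lay on the same side of WEE1, 1666 bp from the gene. It scored 62.7 (chromosome 1, 671204 to 671640), ranked 301 and touched AT1G02965 alone. SOG1 had its nearest peak 13.9 kb away (chromosome 1, 8981882 to 8982792, score 32.2), at AT1G25560. Of genes without a peak, 46.2% had a nearer one, so SOG1 stood close to the middle of them.

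The 5 genes with a peak all had one close to a gene end. Each had a midpoint within 200 bp of the end with the lower coordinate: 23.5 bp for RAD9, 25 bp for ATM, 63.5 bp for RAD1, 76.5 bp for WEE1 and 134.5 bp for MEI1. At RAD9 that midpoint was outside the gene and at the other 4 inside it. RAD1 was the only one with a midpoint within 200 bp of the higher-coordinate end. Of all 3828 genes with a peak, 51.3% had a midpoint within 200 bp of either end. The share was 26.4% for the lower-coordinate end and 26.4% for the higher-coordinate end. The strand of each gene was not used, so these ends are not named as 5′ or 3′. The lower-coordinate end may be the start of one gene and the far end of another.

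The count of genes with a peak turned on the weak peaks. With the 1467 higher-scoring peaks of the list (score of 17.36 or more), WEE1 was the only checkpoint gene left (1 of 10), against 7.59% of all protein-coding genes. RAD9 stood just under that limit, at 16.8. With the 733 highest-scoring peaks (score of 28.53 or more), WEE1 was again the only one, against 4.14%. At these thresholds the share among checkpoint genes, 10%, rests on 1 gene. With only the peaks that touched 1 protein-coding gene, ATM, RAD9 and RAD1 remained (3 of 10, against 4.22%), and WEE1 and MEI1 dropped out. RAD1 remained there only through its peak of 11.9, the one that covers the tRNA gene and lies outside RAD1.

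The width of the window mattered less. With no flank the same 5 genes had a peak, against 8.39% of all genes, and so they did with a 500 bp flank (11.9%) and when the midpoint had to lie in the window (13.4%). A flank of 2000 bp added RAD17 (6 of 10, against 17.8%). When each peak counted for the gene with the nearest end alone, MEI1 was lost (4 of 10, against 9.13%). Without the peaks that overlapped a tRNA gene, the 5 genes kept a peak, against 13.4% of all genes, since RAD1 has a second one.

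**Figure D3:**
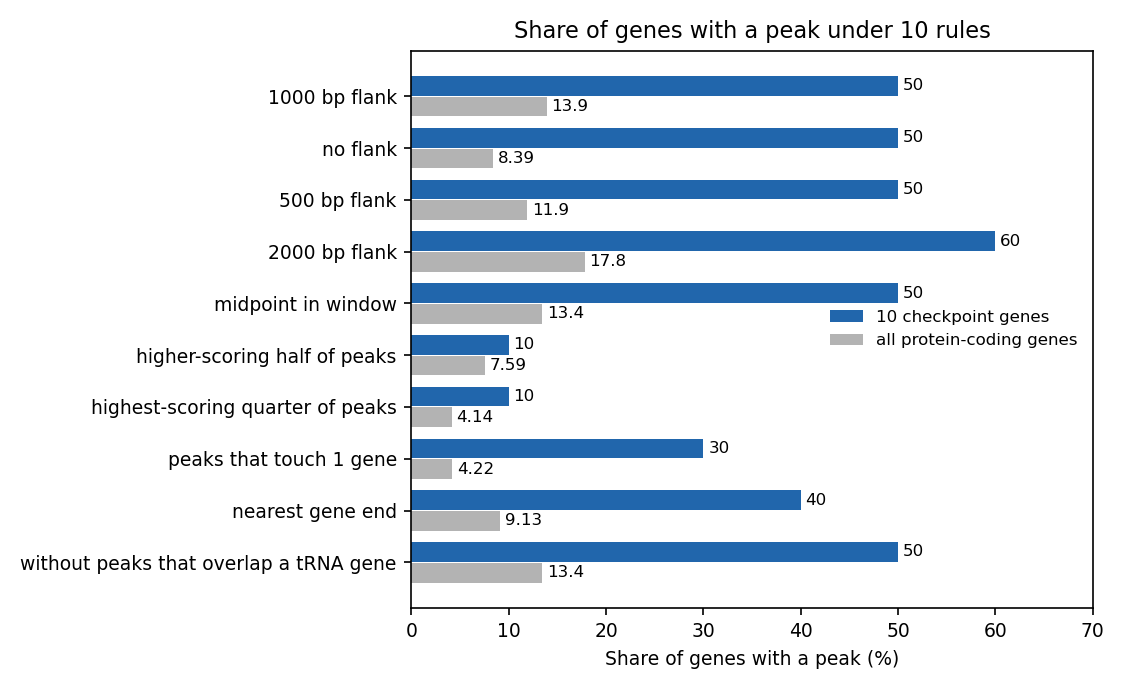
Share of genes with a peak in percent under 10 rules, for the 10 checkpoint genes (blue) and all 27444 protein-coding genes (grey), with the value at each bar. The checkpoint share is 50% by the main rule, against 13.9%, and 10% with the 1467 higher-scoring peaks, against 7.59%.

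Other genes of the damage response were described from 3 lists, to show where the checkpoint genes stood among them. The lists were chosen with earlier results of these data known, so their shares and scores are a description only. The highest scores of the 5 checkpoint genes with a peak had a median of 15.8, and 1 of the 5 was above the median of all peaks. Over all 3828 genes with a peak the median was 18.5, with 54.2% above the median of all peaks. The order of the medians turned with a flank of 2000 bp. There the 6 checkpoint genes with a peak had a median of 27.3, against 18.5 for all genes with a peak. The share above the median of all peaks rose to 3 of 6, still below the 54.5% of all genes with a peak. Both rises came from RAD9, which then took the peak of 38.7 at RALFL22, and RAD17, which took the peak of 80.05 at PAD2.

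The list of checkpoint outputs holds genes that act after the sensors, such as CDK inhibitors, mitotic kinases and transcription factors, among them MYB3R genes. Of its 15 genes 13 had a peak, against 13.9% of all protein-coding genes, with a median highest score of 73.01. With only the peaks that touched 1 gene, 3 were left (SMR4, TSO2 and CDKB1;2), against 4.22%. SMR4, a SIAMESE-related CDK inhibitor gene, led with 274.9. MYB3R3 itself had 124.9, and whether that signal belongs to the endogenous gene or the transgene was not tested. The kinase gene CDKB1;1 had 104.6 and ANAC044, a NAC gene close to SOG1 in sequence, had 97.6. Without a peak were SMR5, a CDK inhibitor gene that SOG1 activates, and CDKA;1, whose product WEE1 phosphorylates. SMR7, a SIAMESE-related gene like SMR4 and SMR5, had a peak of 73.01 that touched 2 genes.

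The list of single-strand DNA binding, clamp and clamp loader genes holds mostly genes of the RPA complex, the clamp loader RFC and the replication clamp PCNA. Of its 20 genes 15 had a peak, against 13.9% of all protein-coding genes, with a median highest score of 66.6. With only the peaks that touched 1 gene, RFC2 alone was left (5.0%), close to the 4.22% of all genes, and with the 733 highest-scoring peaks 9 were left, against 4.14%. RPA1B and RPA3A, which encode subunits of the single-strand binding complex RPA, had 138.1 and 135.35. PCNA2, the replication clamp, had 130.9 and TIMELESS, a fork protection gene, 99.7. The highest scores of the checkpoint clamp genes RAD9 and RAD1 (16.8 and 15.8) fell inside the range of this list. Of the 15 genes, 11 had a higher score than both and 4 a lower one than both: RPA1C (12.8), the clamp loader genes RFC3 (11.4) and RFC4 (11.1), and RPA2B (9.10), which were named after their values were seen. Without a peak were RPA1A, RPA1E, RPA3B, RFC1 and AT5G27740, the last also a clamp loader gene.

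The list of break sensing and repair genes held 10 of 24 with a peak, against 13.9% of all protein-coding genes, with a median highest score of 35.5. When peaks shared between genes were left out, the share was 4.17%, close to the 4.22% of all genes, and with the 733 highest-scoring peaks 5 were left, against 4.14%. BARD1 and BRCA1, partners in homologous recombination, had 270.7 and 69.7, and the BRCA2 genes AT4G00020 and AT5G01630 had 154.03 and 95.6. Each of these scores came from a peak that touched 2 genes. Genes named after their values were seen include those next to ATM in the pathway. MRE11, a subunit of the complex that recruits ATM to breaks, had a peak of 9.33, which touched 3 genes. The genes of its partners RAD50 and NBS1 had none. Of the 2 genes of the histone H2AX, which ATM and ATR phosphorylate, AT1G54690 had a score of 15.15 and AT1G08880 no peak. The AT1G54690 peak also touched 3 genes. The end-joining genes KU70, KU80, LIG4 and XRCC4 had no peak either, like most genes of this list and most protein-coding genes.

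**Figure D4:**
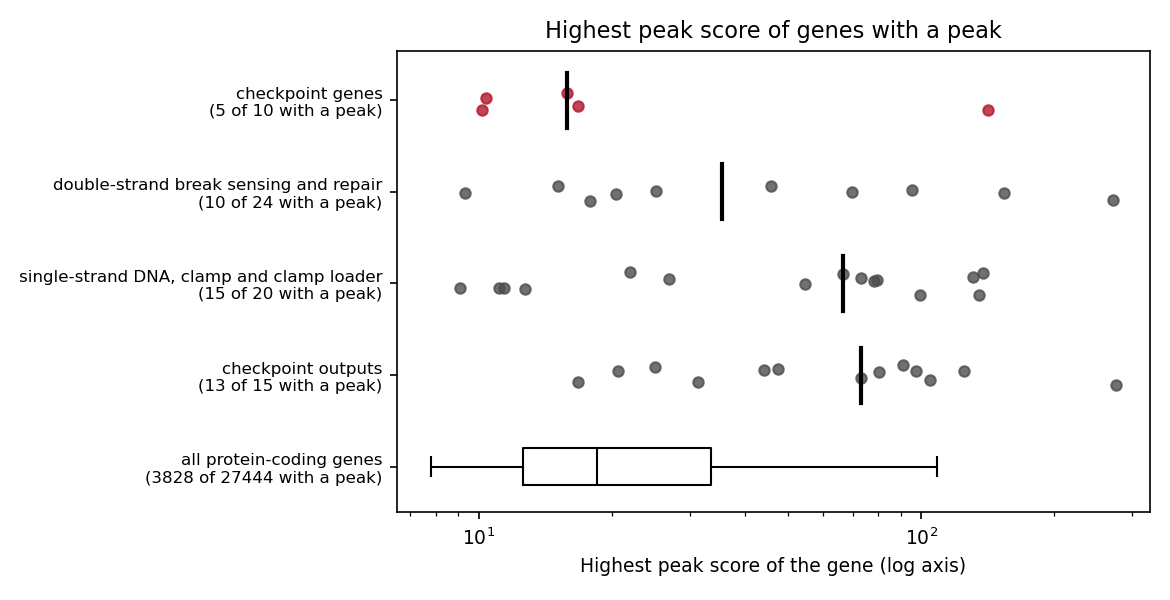
Highest peak score per gene (log axis) for genes with a peak: points are genes, with the checkpoint genes in red and the other lists in grey, and black bars are medians (15.8, 35.5, 66.6 and 73.01 from top to bottom). The box shows the median and quartiles of all 3828 genes with a peak, with whiskers from the 5th to the 95th percentile; 4 of the 5 red points lie left of its median of 18.5.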

How the data were processed

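Per the submitters' processing notes, Bowtie 0.12.7, SAMtools 0.1.18 and MACS2 were used with the TAIR10 build; no source used here states the role of each, the peak threshold or how the input was used. The authors deposited a score per peak for the ChIP library, and other deposited values are the start and end in base pairs. Starts were read as counting from 0 and are printed counting from 1. Scores were only ranked and filtered. No summit was used.

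Genes came from RefSeq's table of TAIR10.1, whose coordinates are not printed. To check the match with TAIR10, all peaks were moved along the chromosome in steps of 100 bp, as far as 2000 bp each way. Midpoints within 200 bp of a gene end made up 57.1% with no move, which was the highest value. Their median was 14.4% when peaks were moved by at least 1000 bp. The step sets how finely this check can see an offset.

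A peak counted for every protein-coding gene it touched. No test was run, because 1 list has no replicates. The members and lists were chosen with earlier results of these data known. All 59 genes of the 3 other lists were in the table. Named were all members, genes sharing their peaks, and the 4 highest-scoring genes of each other list. Outside this rule, after their values were seen, were named other genes of the lists (without a peak, with low scores or left by an alternative), the genes touched by the nearest peaks outside the members' windows (RALFL22, PAD2, AT5G66150, FRS6, AT1G52510 and AT1G25560) and the tRNA gene. Planned motif matches were not run, since no sequence was used here. The overlap code was checked against a direct loop. Python 3.11.15, pandas 2.3.3, NumPy 2.4.6 and matplotlib 3.10.9 were used.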

Additional observations from a re-analysis of the deposited data

How the results depend on the processing

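The count of checkpoint genes with a peak was 5 of 10, against 13.9% of all protein-coding genes. It fell to 1 with the 1467 higher-scoring peaks (7.59% of all genes) and to 1 with the 733 highest-scoring (4.14%). With peaks that touched 1 gene it was 3 (4.22%). Each of these settings uses fewer peaks by construction, and the share of all genes fell too. The count was 4 to 6 in the other 6 settings (8.39% to 17.8% of all genes). Of these 6, the one without tRNA peaks was added after the data were seen. The median highest score, 15.8, was 13.1 with a 500 bp flank, where RAD9 lost its outermost peak (13.09 in place of 16.79), and 27.3 with a 2000 bp flank, where RAD9 gained the peak at RALFL22 (38.72) and RAD17 entered. The scores of ATM, RAD1, MEI1 and WEE1 did not move in these settings or with the midpoint rule. All 5 genes stayed within 200 bp of a gene end when the nearest edge of the peak replaced its midpoint. That outcome was fixed in advance, because the nearest edge is never farther from a gene end than the midpoint. The settings for the other lists were added after the data were seen. With the 733 highest-scoring peaks, 5 of the 24 break sensing and repair genes (20.8%) kept a peak. Of the 20 single-strand DNA and clamp genes 9 did (45.0%), against 4.14% of all protein-coding genes. With peaks that touched 1 gene, 1 gene of each of these lists kept a peak, and 3 of the 15 checkpoint outputs did. With peaks that touched 1 gene, the shares were 4.17% for break sensing and repair and 5.0% for single-strand DNA and clamp genes, close to the 4.22% of all protein-coding genes, and 20.0% for checkpoint outputs. The motif alternative was not run. No paired analysis was possible because a single library had a peak list, which also means that none could be left out. At ATR, SOG1 and the other genes without a peak, binding below the authors' threshold would not be seen.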
